A study of Mus musculus with 9 samples.

Results

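The 9 enzymes described here, *Fdft1*, *Sqle*, *Lss*, *Cyp51*, *Tm7sf2*, *Nsdhl*, *Hsd17b7*, *Ebp* and *Dhcr7*, belong to the section of sterol synthesis that leads from squalene to cholesterol. They were taken by gene name from a count table of 43346 mouse genes, each matched 1 row, and all 9 were among the 15024 genes that passed the filter on low counts. The 9 names were chosen by pathway membership with the counts of these same libraries, and all 3 comparisons of them, already known. Their levels and differences are therefore a description, and where a member is said to be called by the fit over all genes, that too describes it and supports nothing. No threshold divided the members from other genes. *Msmo1* and *Sc5d* act in the same section, and *Lbr* encodes a further reductase of it. These 3 are given apart from the 9 members.

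Whole liver of 12-week-old C57/BL6 mice was profiled by RNA-Seq in 3 groups of 3. The liver removed at surgery (0 hours) from vehicle-treated mice served as the baseline, and liver remnants were collected 40 hours after 70% partial hepatectomy from mice given vehicle or NSC87877 (NSC), a small molecule inhibitor of the phosphatase SHP2. NSC was dosed at 7.5 mg/kg, 2 doses a day. The labels place the first dose 12 hours before surgery and the study's methods place it a day before. Liver resected from mice on NSC was not analysed here, and both 40-hour groups are therefore set against the same 3 vehicle specimens, and the effects of the drug before surgery cannot be told apart from those after it. NSC also acts on SHP1, and all mice that gave remnants had undergone surgery. The labels number the libraries of a group without saying whether a specimen and a remnant came from 1 mouse, so the spread given is that between libraries.

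Cholesterol synthesis begins with acetyl-CoA, which the mevalonate enzymes turn into farnesyl diphosphate. Squalene synthase joins a pair of these units, squalene is epoxidized and closed into lanosterol, the first sterol, and a chain of demethylases, reductases and an isomerase in the endoplasmic reticulum then trims lanosterol to cholesterol. The liver is a main site of this synthesis, and most genes of the pathway are known targets of the transcription factor SREBP-2, which is released from the endoplasmic reticulum when its membranes hold little sterol.

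Sequences before the start of transcription were at hand for 7 of the 9 genes, from RefSeq on the mouse build GRCm38.p6, and none for *Fdft1* and *Sqle*. In the 250 bases before the annotated start nearest to the deposited gene's 5′ end, 4 short motifs were looked for on both strands. These were CCAAT, the box bound by NF-Y, and GGGCGG, the GC box bound by Sp1, which both stand beside sterol elements in many genes of the pathway, together with TCACNCCAC, a form of the sterol regulatory element, and CACGTG, the E-box. The motif CCAAT stood in 6 of the 7 windows and in 33.8% of all 32851 promoters in the table, and GGGCGG stood in 7 of 7 and in 32.7%. TCACNCCAC was in 0 of 7 windows and in 1.05% of all, and CACGTG was in 1 of 7, that of *Hsd17b7*, and in 6.02%. A match is a row of letters and not a measured site, and a window without one says nothing of the factor. Shown are *Lss*, *Nsdhl* and *Dhcr7*, which were lower in NSC-treated mice than at baseline, and *Ebp*, whose groups overlapped. Capitals mark CCAAT or its reverse ATTGG, and GGGCGG or its reverse CCGCCC, and each line reads 5′ to 3′ on the gene's strand.
Lss, chr10:76531355-76531604, plus strand: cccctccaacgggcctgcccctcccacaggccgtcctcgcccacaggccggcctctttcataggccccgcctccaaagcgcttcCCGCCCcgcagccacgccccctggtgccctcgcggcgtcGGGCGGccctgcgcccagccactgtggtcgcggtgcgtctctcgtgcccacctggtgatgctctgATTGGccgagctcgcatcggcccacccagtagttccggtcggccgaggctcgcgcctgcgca
Nsdhl, chrX:72918271-72918520, plus strand: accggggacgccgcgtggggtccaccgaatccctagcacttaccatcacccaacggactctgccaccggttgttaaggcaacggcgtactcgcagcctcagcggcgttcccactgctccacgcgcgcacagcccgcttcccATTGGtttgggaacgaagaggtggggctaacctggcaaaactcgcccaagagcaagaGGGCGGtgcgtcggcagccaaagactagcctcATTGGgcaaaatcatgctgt
Ebp, chrX:8193513-8193762, minus strand: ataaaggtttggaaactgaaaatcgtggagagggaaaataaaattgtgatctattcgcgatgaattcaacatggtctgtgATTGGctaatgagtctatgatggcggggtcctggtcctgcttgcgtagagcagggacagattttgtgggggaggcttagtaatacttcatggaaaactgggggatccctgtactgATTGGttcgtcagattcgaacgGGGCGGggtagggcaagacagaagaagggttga
Dhcr7, chr7:143822917-143823166, plus strand: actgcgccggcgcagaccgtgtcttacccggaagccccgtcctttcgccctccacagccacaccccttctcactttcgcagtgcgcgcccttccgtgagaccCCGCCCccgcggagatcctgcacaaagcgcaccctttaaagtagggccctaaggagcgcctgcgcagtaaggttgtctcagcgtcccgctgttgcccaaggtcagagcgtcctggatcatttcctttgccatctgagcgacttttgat

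The CCAAT letters begin 62 bases before the start in *Lss*, 55 and 170 bases before it in *Ebp*, and 20 and 109 bases before it in *Nsdhl*. *Dhcr7* has 3 annotated starts, and the window shown, that of the nearest start, holds 1 GC box and no CCAAT. Before the start farthest downstream, CCAAT letters stood 49 and 85 bases away beside 3 GC boxes, and before the remaining start there was neither. *Ebp* thus carried the same letters as *Lss* and *Nsdhl*. Among the windows not shown, *Cyp51* and *Hsd17b7*, whose groups overlapped too, and *Tm7sf2*, called lower with NSC against baseline, also carried them.

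Each library held between 23997363 and 42887589 counts on genes, and each enzyme had from 1186 counts (*Hsd17b7* in an NSC library) to 12883 (*Cyp51* in a vehicle library). Levels are given as CPM, the counts relative to library size, scaled by TMM factors, and differences as log2 fold changes with their standard error (SE) from 1 edgeR quasi-likelihood fit of all 9 libraries. A gene is called when its Benjamini-Hochberg adjusted p over the 15024 genes is under 0.05. All 8 hepatocyte markers were measured, and their summed level was 101706 to 123474 CPM over the 9 livers with overlap of all 3 groups. With TMM scaling and relative to the baseline mean, the median of the 8 was -0.41 to -0.22 on the log2 scale in NSC livers, -0.34 to 0.14 in vehicle remnants and 0.01 to 0.05 at baseline. Against baseline, *Tat*, an aminotransferase, was called lower with vehicle and NSC (-1.25 and -1.93, log2) and *Cps1*, of the urea cycle, with NSC (-1.25), and the other 6 were not called. Markers of other cells moved between groups. The 5 macrophage markers found summed to 134 to 198 CPM at baseline, 120.1 to 188 in vehicle remnants and 245 to 374 in NSC remnants, and the 5 stellate cell markers to 51.7 to 63.0, 191 to 337 and 105 to 189.6. In the same order of groups, 5 neutrophil markers summed to 3.39 to 10.49, 9.05 to 18.1 and 13.8 to 23.3 CPM, and 4 cholangiocyte markers to 4.12 to 6.28, 13.5 to 19.6 and 9.29 to 11.7. The 5 lymphocyte markers summed to 1.89 to 6.51, 0.54 to 1.56 and 1.38 to 1.92 CPM, 5 endothelial markers to 153 to 159, 104 to 144 and 115 to 221, and 3 erythroid markers to 189.7 to 277, 89.96 to 129.5 and 110.2 to 204. Against baseline, 12 of 12 S phase genes were called higher in both remnant groups, with median log2 fold changes of 2.21 with vehicle and 2.44 with NSC. Neutrophil markers were called higher for 1 of the 4 tested with vehicle and 3 with NSC, cholangiocyte markers for 3 of 4 and 2 of 4, and lymphocyte markers lower for 2 of the 4 tested and 1 of them. Macrophage markers were called higher for 1 of 5 with vehicle and 3 of 5 with NSC. Stellate cell markers were called higher for 4 of 5 and 2 of 5, and 1 of the 5 had a negative value in each. Endothelial markers were called lower for 1 of 5 and 0 of 5, and erythroid markers for 1 of 3 in each. Against baseline, 12.7% of all genes were called higher and 11% lower with vehicle, and 18.2% and 16.5% with NSC. The part of the marked cells in the values below was not tested. In whole liver, fewer hepatocytes and less RNA per hepatocyte cannot be told apart.

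In NSC-treated mice 40 hours after hepatectomy, 5 of the 9 enzymes were called lower than at baseline and none higher, among all genes of which 16.5% were called lower and 18.2% higher. In vehicle-treated mice 0 of 9 were called in either direction by the same edgeR fit, where 12.7% of all genes were called higher and 11% lower. Between NSC and vehicle remnants all 9 enzymes had a negative log2 fold change, and 0 of 9 passed the threshold, which 0.0399% of all genes passed as lower and 0% as higher. The sign rested on single libraries for *Tm7sf2* and *Ebp*, which stood at 0.01 and 0.0043 without vehicle remnant 2, and *Ebp* at 0.07 without NSC replicate 1. The sum of the 9 levels was 1593 ± 202 CPM (SD, n = 3) at baseline, 1542 ± 299.6 in vehicle remnants and 1068 ± 89.8 in NSC remnants. Every NSC liver had a lower sum than every other liver.

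**Figure D1:**
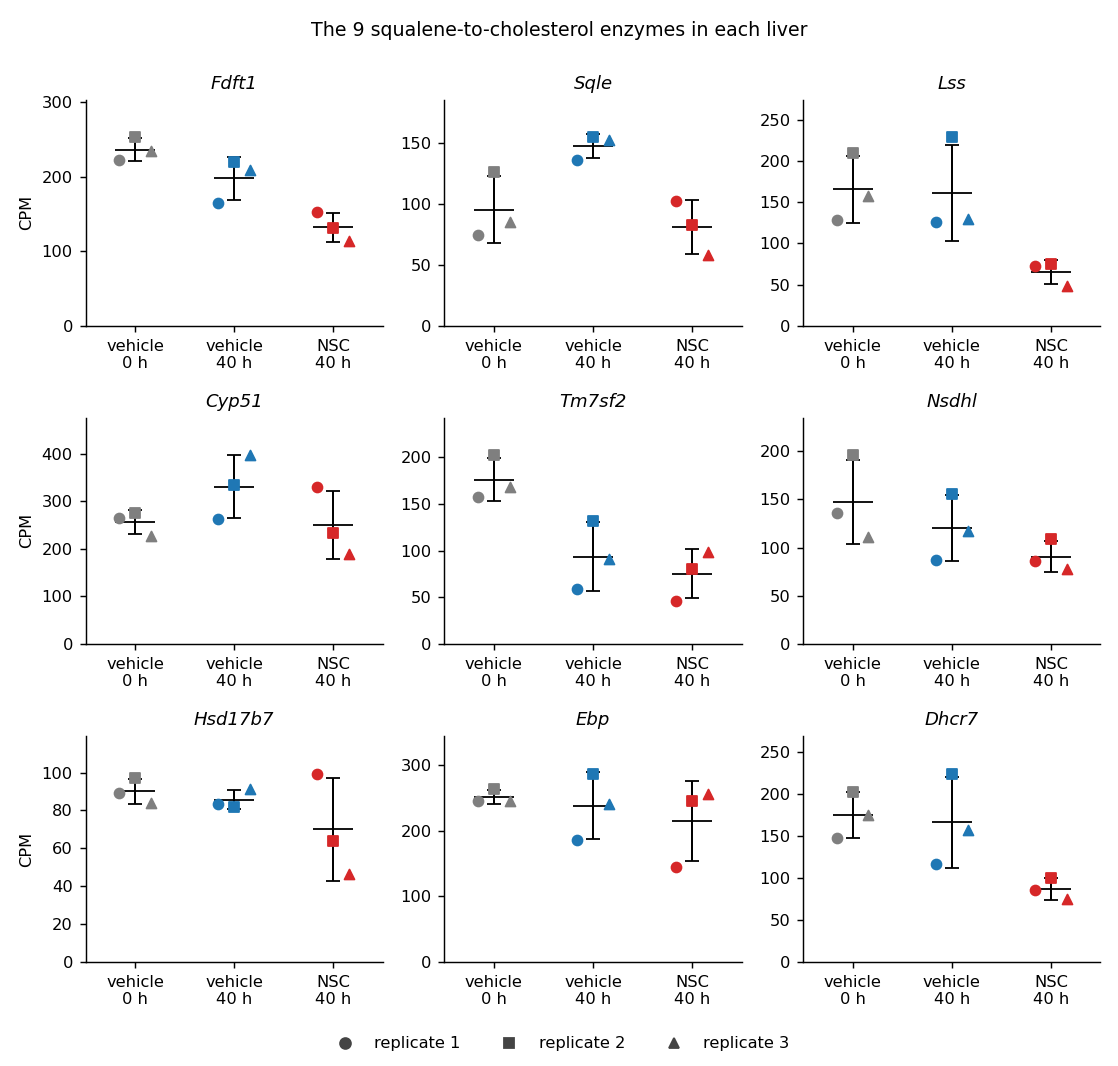
Level of each enzyme in CPM (linear axis from 0) in each of the 9 livers, with the mean and SD of each group of 3 as black bars and the replicate number as the symbol. The 3 NSC livers lie below all vehicle livers of either time for *Fdft1*, *Lss* and *Dhcr7*, whereas *Ebp*, *Cyp51* and *Hsd17b7* overlap between groups.

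*Fdft1* (ENSMUSG00000021273, chr14:63145153-63177793 in the table) encodes squalene synthase, the first step committed to sterols. It measured 222, 252 and 234 CPM in the 3 baseline livers, 165, 219 and 209 in vehicle remnants, and 153, 131 and 113 in NSC remnants. The 3 groups formed steps that did not overlap, with the NSC livers lowest. The log2 fold change was -0.84 ± 0.17 (SE) for NSC against baseline, called lower, -0.58 ± 0.17 for NSC against vehicle and -0.26 ± 0.17 for vehicle against baseline. In the table's coordinates its last 767 bases overlap *Ctsb* on the opposite strand, whose counts were 284% of its own, and the libraries were strand-specific while the strand setting of the counting is not given in the sources used here.

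*Sqle* (ENSMUSG00000022351, chr15:59315077-59331192) encodes squalene epoxidase, the oxygen-requiring and rate-limiting step after squalene. Its baseline levels were 74.6, 127 and 85.3 CPM, its vehicle levels 136, 155 and 152, and its NSC levels 103, 82.6 and 58.6. All vehicle remnants were above all baseline and NSC livers, and the NSC livers overlapped the baseline. The log2 fold change was 0.63 ± 0.23 for vehicle against baseline and -0.86 ± 0.23 for NSC against vehicle, neither past the threshold, and -0.23 ± 0.23 for NSC against baseline. *Sqle* was the only member with every vehicle remnant above every baseline liver, a pattern that 24.2% of all genes had, and 24% had it in NSC against baseline, where no member did.

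*Lss* (ENSMUSG00000033105, chr10:76531588-76557138) encodes lanosterol synthase, which closes the epoxide into the sterol rings. It lay at 129, 209.6 and 158 CPM at baseline, at 126, 228 and 129 in vehicle remnants, and at 73.2, 74.9 and 48.8 in NSC remnants. Baseline and vehicle livers overlapped throughout and the NSC livers stood below both. The difference was -1.33 ± 0.27 (log2, SE) for NSC against baseline, called lower, and -1.30 ± 0.27 for NSC against vehicle, the lowest of the 9 in either comparison, against -0.04 ± 0.27 for vehicle against baseline.

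*Cyp51* (ENSMUSG00000001467, chr5:4081145-4104746) encodes the cytochrome P450 that begins the removal of the methyl groups of lanosterol. Its levels were 265, 276 and 227 CPM at baseline, 263, 334 and 396 in vehicle remnants, and 329, 233 and 189.9 in NSC remnants. The groups overlapped in every comparison, and NSC replicate 1 was higher than all 3 baseline livers while NSC replicate 3 was the lowest of the 9. Its log2 fold changes were -0.03 ± 0.22 for NSC against baseline, 0.37 ± 0.22 for vehicle against baseline and -0.40 ± 0.22 for NSC against vehicle.

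*Tm7sf2* (ENSMUSG00000024799, chr19:6062821-6068373) encodes the reductase that acts on the double bond left by *Cyp51*. It measured 158, 202 and 168 CPM at baseline, 58.6, 132 and 90.6 in vehicle remnants and 46.5, 80.8 and 98.9 in NSC remnants. Both sets of remnants lay below all baseline livers and overlapped each other. The log2 fold change against baseline was -1.22 ± 0.32 with NSC, called lower, and -0.91 ± 0.32 with vehicle, not past the threshold, and NSC against vehicle gave -0.31 ± 0.31. The gene *Vps51*, which shares 532 bases with it on the same strand, had 12.4% of its counts.

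*Nsdhl* (ENSMUSG00000031349, chrX:72918557-72958514) and *Hsd17b7* (ENSMUSG00000026675, chr1:169949535-169969241) encode the dehydrogenase and the ketoreductase of the complex that removes the next methyl groups. *Nsdhl* lay at 136, 195 and 111 CPM at baseline, at 87.1, 155 and 117 in vehicle remnants and at 86.1, 109 and 77.3 in NSC remnants. *Hsd17b7* lay at 89.2, 97.2 and 83.7 CPM at baseline, at 83.6, 82.1 and 91.3 in vehicle remnants and at 99.5, 64.0 and 46.4 in NSC remnants. The highest and the lowest *Hsd17b7* of the series were thus both NSC livers, and its coefficient of variation was 38.6% there against 7.53% at baseline and 5.76% in vehicle remnants. For *Nsdhl* the highest NSC liver lay just under the lowest baseline liver, and NSC against baseline was -0.70 ± 0.25 (log2, SE) and called lower. For *Hsd17b7* the same comparison gave -0.36 ± 0.22. The vehicle remnants differed from baseline by -0.30 ± 0.25 in *Nsdhl* and -0.07 ± 0.22 in *Hsd17b7*, and NSC from vehicle by -0.40 ± 0.25 and -0.29 ± 0.22, all with overlap of the groups. The call of *Nsdhl* was the least stable of the 5 and ended when 1 of 5 libraries was left out (baseline replicate 1 or 2, vehicle remnant 3, NSC replicate 1 or 3) and with no scaling beyond library size.

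*Ebp* (ENSMUSG00000031168, chrX:8185329-8193512) encodes the sterol isomerase that shifts the double bond of the ring. Its levels were 246, 264 and 246 CPM at baseline, 187, 287 and 242 in vehicle remnants and 144, 245 and 256 in NSC remnants. The baseline livers were close together and both remnant groups spread to either side of them or reached them, so no comparison was free of overlap. The log2 fold change was -0.23 ± 0.22 for NSC against baseline, -0.08 ± 0.22 for vehicle against baseline and -0.15 ± 0.22 for NSC against vehicle, the smallest difference of the 9 in that comparison.

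*Dhcr7* (ENSMUSG00000058454, chr7:143823145-143848410) encodes the reductase that makes cholesterol from its immediate precursor. It measured 147, 203 and 175 CPM at baseline, 117, 224 and 158 in vehicle remnants, and 85.6, 100.4 and 75.3 in NSC remnants. The NSC livers lay below all others, while the vehicle remnants spread around the baseline. The log2 fold change was -1.01 ± 0.23 for NSC against baseline, called lower, -0.93 ± 0.23 for NSC against vehicle and -0.07 ± 0.22 for vehicle against baseline.

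**Figure D2:**
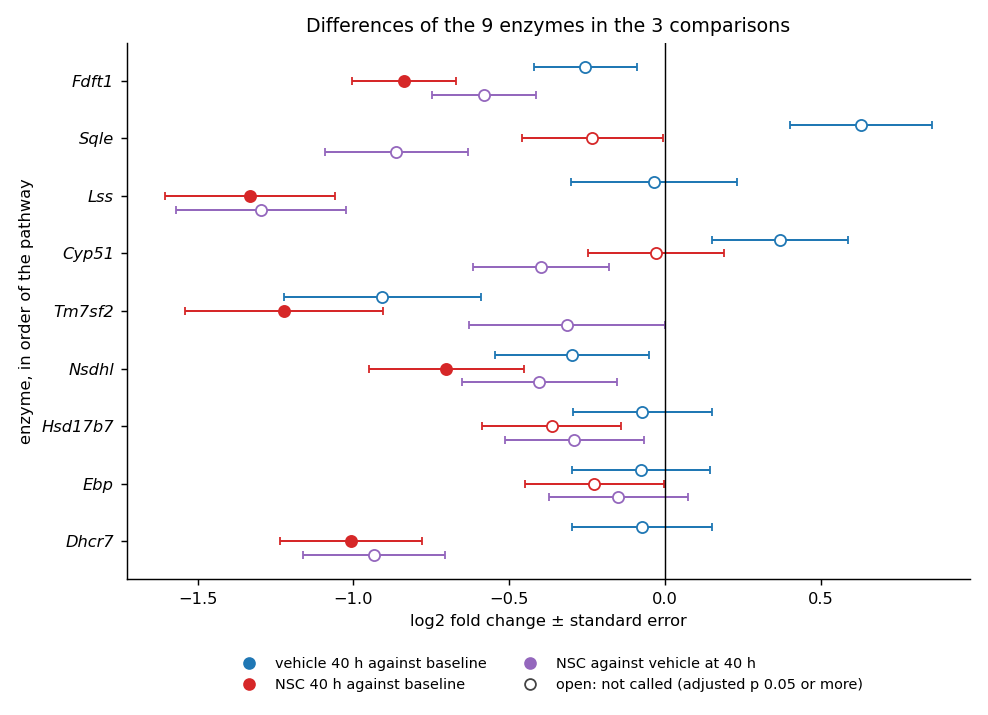
Log2 fold change of each enzyme with its standard error in the 3 comparisons, from the fit of all 9 libraries. Filled points passed an adjusted p of 0.05, which only NSC against baseline has (5 of 9), and all 9 purple points of NSC against vehicle lie below 0 without passing it.

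Read together by comparison, the 5 enzymes called lower with NSC against baseline were *Fdft1*, *Lss*, *Tm7sf2*, *Nsdhl* and *Dhcr7*, and they were also the 5 whose NSC livers all lay below the baseline livers, as did those of 23.1% of all genes. The median log2 fold change of the 9 was -0.70, against 0.01 over all genes tested. For vehicle against baseline the median was -0.07, and the groups were free of overlap for *Sqle* above and for *Fdft1* and *Tm7sf2* below the baseline, the latter a pattern of 22% of all genes. For NSC against vehicle the median was -0.40, against 0.02 over all genes. There *Fdft1*, *Sqle*, *Lss* and *Dhcr7* had all NSC livers below all vehicle livers, as 12.2% of all genes had, and none had them above, as 10.3% had. The same 4 of the 9 had an unadjusted p under 0.05 in the edgeR quasi-likelihood fit that called 0. The share of all genes with such a p is not given here, so that count has no background to be set against. DESeq2 called 4 of 9 lower in this comparison, with 6.12% of all genes called in either direction, and the edgeR exact test called 3 of 9, with 3.02%. No member passed when a log2 fold change beyond 1.5 in either direction was asked for as well, which 7.22% of all genes passed in vehicle against baseline, 8.13% in NSC against baseline and 0.02% in NSC against vehicle. The comparisons share libraries, so these counts are not independent of each other.

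Across all genes, log2 fold changes followed the GC content of the longest transcript, with Spearman's rho of -0.56 for NSC against vehicle, -0.41 for NSC against baseline and -0.13 for vehicle against baseline, a description over genes that are not independent replicates. The 9 enzymes had GC contents of 43.9% (*Hsd17b7*) to 52.8% (*Dhcr7*), around the median of 49.7% of all genes tested. With a correction for GC content, chosen after seeing the data, the median of the 9 was -0.54 for NSC against vehicle, and 0 members and 0 of all genes were called there. In NSC against baseline 6 members were then called lower, *Hsd17b7* joining the 5, and 29.1% of all genes were called in either direction.

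The livers of a group did not shift all 9 enzymes alike. Relative to the baseline mean, the median of the 9 was -0.74, -0.49 and -0.89 on the log2 scale in the 3 NSC livers and -0.43, 0.19 and -0.14 in the 3 vehicle remnants. Vehicle replicate 2 had the highest level of its group for 7 enzymes, and vehicle replicate 1 the lowest for 8. NSC replicate 3 had the lowest level of all 9 livers for 7 enzymes, with *Tm7sf2* and *Ebp* as the exceptions, in which NSC replicate 1 was the lowest of all. In NSC replicate 1 *Tm7sf2* stood at -1.91 and *Ebp* at -0.80 relative to the baseline mean, and *Cyp51* at 0.37 and *Hsd17b7* at 0.15. In NSC replicate 3 *Ebp* stood at 0.03 and *Hsd17b7* at -0.95, the reverse of their order in replicate 1, whereas *Tm7sf2* at -0.82 lay below *Cyp51* at -0.43 there as well. The baseline livers differed too, since replicate 2 was the highest of its group for all 9. That liver also had the highest median of 12 circadian clock genes, at 0.81 relative to the baseline mean against -0.09 and -0.66 in the other two. All 6 remnants were lower, at -1.96 to -0.81, and 3 of the 12 were called lower with vehicle and 2 with NSC against baseline (median log2 fold changes of -1.49 and -1.50). Of all genes, 11% were called lower with vehicle and 16.5% with NSC. Of the 12, 8 had a negative value with vehicle and 11 with NSC, and the others a positive one. The part of the clock in the members' levels was not tested. Without baseline replicate 2, 4 of 9 were called lower in NSC against baseline, with a median of -0.45. Of all genes, 28.7% were then called in either direction.

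**Figure D3:**
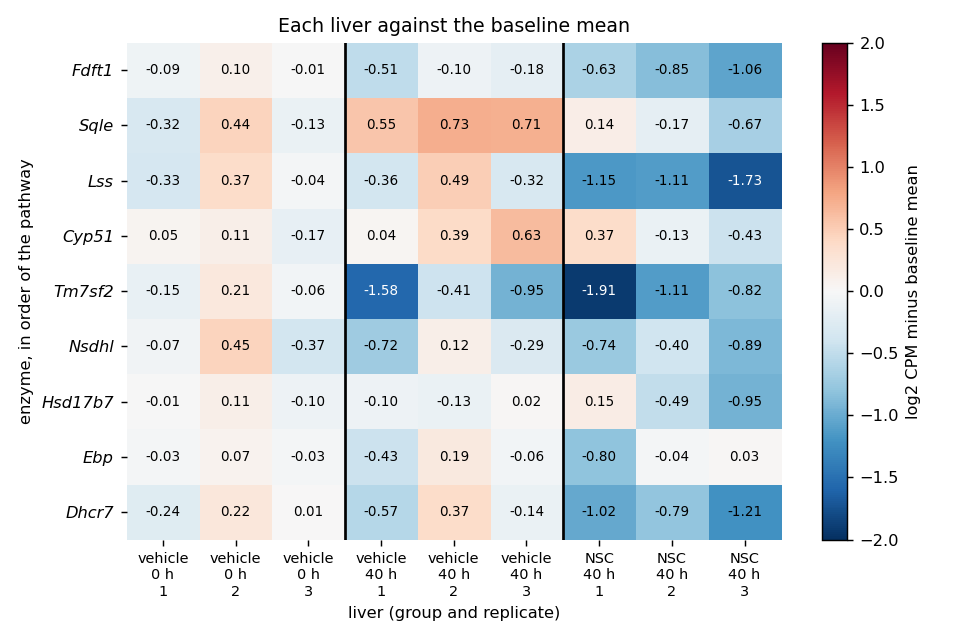
Log2 CPM of each enzyme in each liver minus its baseline mean, with blue below and red above the baseline and the value written in each cell. The NSC livers are below 0 in *Fdft1*, *Lss*, *Tm7sf2*, *Nsdhl* and *Dhcr7*, whereas NSC replicate 1 and replicate 3 differ in *Hsd17b7* (0.15 and -0.95) and *Ebp* (-0.80 and 0.03).

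Over the 9 livers, 31 of the 36 pairs of enzymes had a positive Pearson correlation of log2 CPM, with a median r of 0.59. These are descriptions over 9 livers that share 3 groups, and each pair shares the scaling of its library. The highest was *Lss* with *Dhcr7* (r = 0.97, and 0.89 after the group means were taken out). *Tm7sf2* with *Ebp* had r = 0.80, and 0.96 within groups, and *Cyp51* with *Hsd17b7* had 0.73 and 0.85. The lowest was *Hsd17b7* with *Ebp* (r = -0.33, and -0.73 within groups). Against the mean of the other 8, r was 0.98 for *Dhcr7*, 0.95 for *Lss* and 0.93 for *Fdft1*, and lowest for *Ebp* and *Cyp51* with 0.42 each. Among the genes most like the mean profile of the members were *4933411K16Rik* (r = 0.97), *Ell* (0.96), *Rab11fip3* (0.96), *Ralgps1* (0.96) and *Ccno* (0.95).

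Per length, as FPKM scaled by TMM over the gene lengths of the table, *Ebp* was the highest of the 9 at baseline with 109 ± 4.53 (SD, n = 3), and *Fdft1* followed with 82.5 ± 5.40, both apart from the next. *Cyp51* (59.7 ± 5.93), *Nsdhl* (51.7 ± 15.2), *Tm7sf2* (50.5 ± 6.61) and *Dhcr7* (46.3 ± 7.32) came next, each overlapping its neighbour in this order. *Hsd17b7*, *Sqle* and *Lss* were lowest at 15.3 to 17.6 and overlapped as well. The table's length of *Lss* is 10787 bases, against 2310 for *Ebp*, and a level per length falls with every exon counted in the length. In NSC remnants *Ebp* (93.1 ± 26.6) and *Cyp51* (58.5 ± 16.7) overlapped, and *Fdft1* followed with 46.2 ± 6.90 and overlapped *Cyp51*. There *Lss* with 6.08 ± 1.35 lay apart from *Hsd17b7* above it. Of the summed FPKM of the 9, *Ebp* held 20.6%, 32.3% and 37.7% in the 3 NSC livers, 23.98% to 25.1% in vehicle remnants and 22.5% to 25.3% at baseline.

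Ratios of enzymes within a liver do not depend on the scaling of libraries. The 5 given were picked after the levels had been seen and carry no test. The FPKM ratio of *Sqle* to *Lss*, which act one after the other, was 1.13, 1.18 and 1.05 in the baseline livers, 2.10, 1.32 and 2.29 in vehicle remnants, and 2.73, 2.14 and 2.34 in NSC remnants. Every remnant had a higher ratio than every baseline liver, and the remnants overlapped. *Lbr*, the lamin B receptor, has the same reductase activity as *Tm7sf2*. The ratio of *Lbr* to *Tm7sf2* rested on opposite differences of the pair, at 0.06, 0.04 and 0.05 at baseline, 0.25, 0.13 and 0.16 in vehicle remnants and 0.24, 0.26 and 0.16 in NSC remnants. *Tm7sf2* remained the more abundant of the pair per length in every liver. The ratio of *Cyp51* to *Lss* was 3.31 to 5.18 at baseline, 3.68 to 7.70 in vehicle remnants and 7.84 to 11.3 in NSC remnants, where it was above every other liver. That of *Sqle* to *Fdft1* was 0.17 to 0.26 at baseline, 0.36 to 0.43 in vehicle remnants and 0.27 to 0.35 in NSC remnants, with no overlap among the 3 groups. The ratio of *Hsd17b7* to *Ebp* overlapped throughout, at 0.15 to 0.17, 0.13 to 0.20 and 0.08 to 0.31.

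**Figure D4:**
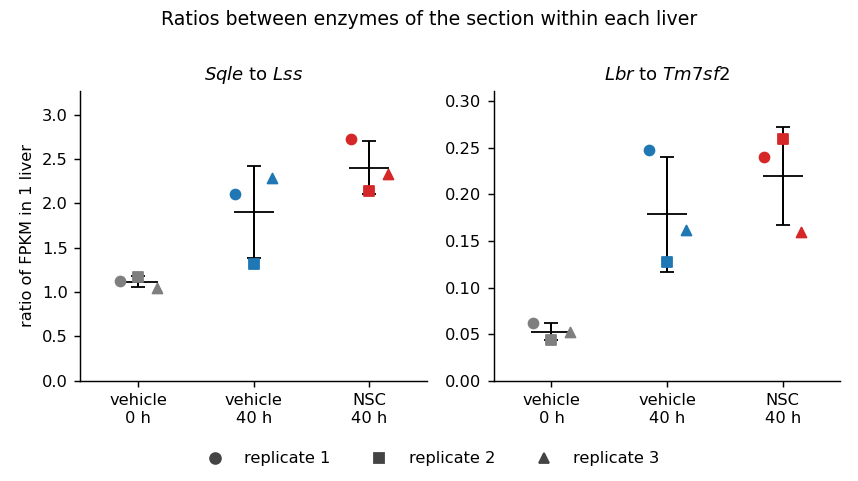
Ratio of FPKM of a pair of enzymes within each of the 9 livers (linear axes from 0), with the group mean and SD as black bars and the replicate number as the symbol. In both ratios plotted, each remnant lies above each baseline liver, and vehicle and NSC remnants overlap.

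Of *Lbr*, *Msmo1* and *Sc5d*, 1 passed the threshold against baseline. *Lbr* rose against baseline in both remnants, by 0.75 ± 0.20 with vehicle (edgeR adjusted p = 0.0189) and by 0.81 ± 0.20 with NSC (adjusted p = 0.00885), from 11.9 to 13.4 CPM at baseline to 19.8 to 22.9 and 15.3 to 28.6. The rise with vehicle missed the threshold without baseline replicate 2 or 3 or vehicle remnant 2, and the rise with NSC after the GC correction. *Msmo1*, the methyl sterol oxidase beside *Nsdhl*, and *Sc5d*, the desaturase before *Dhcr7*, passed the threshold in no comparison, with log2 fold changes of 0.15 ± 0.26 and -0.64 ± 0.24 for vehicle and -0.24 ± 0.26 and -0.34 ± 0.24 for NSC against baseline. *Msmo1* in NSC livers (327, 176 and 159.6 CPM) had the same order as *Cyp51*, and *Sc5d* (277, 470.5 and 361 CPM) had its lowest NSC level in replicate 1, as did *Tm7sf2* and *Ebp*.

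Ahead of squalene, 5 of 7 mevalonate enzymes fell in NSC remnants against baseline and none rose, with a median log2 fold change of -0.94 over the 7. Of all genes, 16.5% were called lower and 18.2% higher in that comparison. By edgeR, *Mvd*, the decarboxylase, had -1.95 ± 0.21 (adjusted p = 9.19e-05), *Pmvk*, a kinase, -1.55 ± 0.26 (adjusted p = 0.00118) and *Fdps*, which makes farnesyl diphosphate, -1.37 ± 0.28 (adjusted p = 0.00318). In vehicle remnants 1 of 7 fell, *Acat2*, the thiolase, at -0.67 ± 0.20 (edgeR adjusted p = 0.0314), where 11% of all genes were called lower. That call ended without any 1 of 5 libraries (any baseline liver, vehicle remnant 1 or 3). *Mvd* was the only one of the 7, and of the 38 neighbouring genes given here, to pass the threshold between NSC and vehicle remnants, at -1.78 ± 0.21 (edgeR adjusted p = 0.0341). It measured 29.7, 43.4 and 38.5 CPM in vehicle remnants and 11.04, 12.0 and 9.59 in NSC remnants, and the call ended without vehicle remnant 2, NSC replicate 2 or NSC replicate 3, and after the GC correction (-1.43, adjusted p = 0.183). All 7 enzymes had negative values in that comparison in the fit of all 9 libraries, with a median of -0.71.

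Of 9 genes of sterol sensing, 3 fell and 1 rose in NSC remnants against baseline, a comparison in which 16.5% of all genes were called lower and 18.2% higher. *Scap*, the sterol sensor that escorts SREBP-2, was at -1.13 ± 0.18 (edgeR adjusted p = 0.000862), *Insig1*, which retains that pair in the endoplasmic reticulum, at -1.02 ± 0.24 (adjusted p = 0.00677) and *Srebf2*, which encodes SREBP-2, at -0.52 ± 0.16 (adjusted p = 0.0289). *Mbtps2*, a protease that releases it, rose by 0.78 ± 0.22 (edgeR adjusted p = 0.0156). The call of *Srebf2* ended without baseline replicate 2 or 3 or NSC replicate 2 or 3, and that of *Mbtps2* without baseline replicate 3, and both ended after the GC correction, with values of -0.07 and 0.30. In vehicle remnants 0 of the 9 passed by edgeR, and *Srebf1* and *Scap* had an unadjusted p under 0.05. Between NSC and vehicle 0 of the 9 passed by edgeR, and 3 of them, *Srebf2*, *Scap* and *Insig1*, had an unadjusted p under 0.05. For neither comparison is the share of all genes with such a p given here, so these genes are named as a description only.

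**Figure D5:**
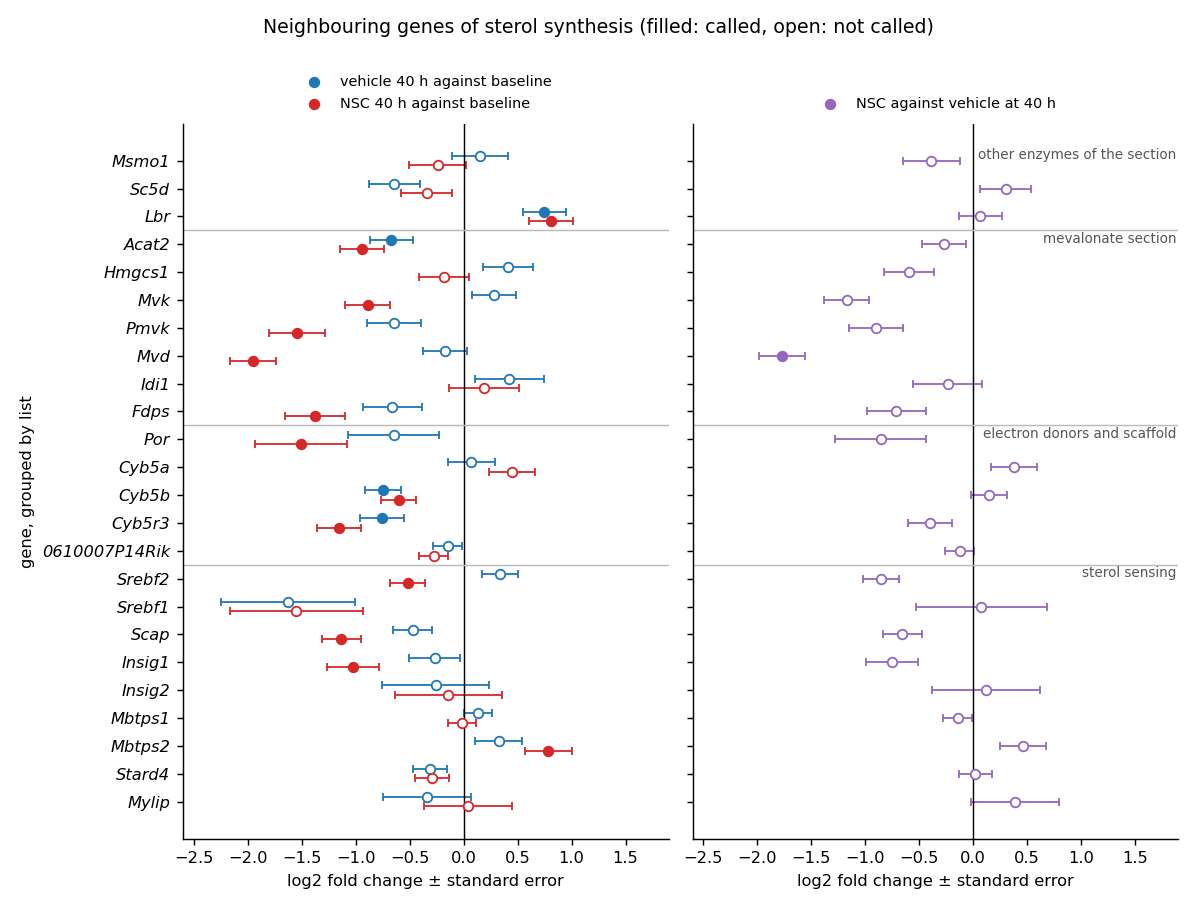
Log2 fold changes with standard errors of the other enzymes of the section, the mevalonate enzymes, the electron donors with the scaffold gene, and the genes of sterol sensing, against baseline (left) and between NSC and vehicle remnants (right). Filled points passed an adjusted p of 0.05, and on the right *Mvd* alone is filled.

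The electron donors matter to *Cyp51* and *Sqle*, which take electrons from *Por*, and to *Sc5d* and *Msmo1*, which take them from cytochrome b5. Of the 4 genes listed around these donors, 3 fell with NSC against baseline, *Cyb5r3*, the cytochrome b5 reductase, at -1.16 ± 0.20 (edgeR adjusted p = 0.00142), *Cyb5b* at -0.60 ± 0.16 (adjusted p = 0.0142) and *Por* at -1.50 ± 0.43 (adjusted p = 0.024). *Por* stood at 307, 776 and 279.6 CPM at baseline and at 185, 145 and 149.8 with NSC, and without the high baseline replicate 2 its log2 fold change was -0.87 (edgeR adjusted p = 0.0425). Its call ended without any 1 NSC liver and after the GC correction, and that of *Cyb5b* without baseline replicate 1 or 3 or NSC replicate 2. *Cyb5a*, cytochrome b5 itself, was at 0.45 ± 0.21 and the scaffold gene *0610007P14Rik* at -0.27 ± 0.13, neither called. With vehicle *Cyb5b* and *Cyb5r3* fell, both with -0.75 (edgeR adjusted p = 0.00689 and 0.0187), the latter call ending without baseline replicate 2 or vehicle remnant 1 or 3. The shares of all genes called lower were 16.5% with NSC and 11% with vehicle. By edgeR none of these 5 genes passed between NSC and vehicle.

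Downstream of cholesterol, 3 of 8 genes of outflow and storage fell and 1 rose with vehicle, and 4 fell and 2 rose with NSC, both against baseline, where 11% (vehicle) and 16.5% (NSC) of all genes were called lower and 12.7% and 18.2% higher. *Abcg5* and *Abcg8*, the pair that exports sterols into bile, fell in both, at -1.16 ± 0.31 and -1.54 ± 0.40 with vehicle (edgeR adjusted p = 0.0225 and 0.0241) and at -1.16 ± 0.31 and -1.96 ± 0.41 with NSC (edgeR adjusted p = 0.0165 and 0.00633). *Soat2*, the hepatocyte enzyme that esterifies cholesterol, fell in both as well, at -0.67 ± 0.21 (edgeR adjusted p = 0.0376) and -1.10 ± 0.21 (adjusted p = 0.00244). *Abcg1* rose in both, by 0.89 ± 0.24 (edgeR adjusted p = 0.0181) and 1.32 ± 0.24 (adjusted p = 0.0016), and *Soat1* with NSC, by 1.15 ± 0.30 (adjusted p = 0.0114). The call of *Soat1* ended after the GC correction (0.83, edgeR adjusted p = 0.0528). *Abcg1* and *Soat1* are also expressed by macrophages, whose 5 markers had median differences of 0.01 (vehicle) and 0.97 (NSC) from baseline on the log2 scale, and their part was not tested. With vehicle, the calls of *Abcg5* (without vehicle remnant 3), *Abcg8* (vehicle remnant 1), *Abcg1* (baseline replicate 1 or 3, vehicle remnant 1 or 2) and *Soat2* (any library of the comparison but vehicle remnant 1, and NSC replicate 2) each rested on single libraries, as did with NSC that of *Abcg5* (any NSC liver). The vehicle calls of *Abcg5* and *Abcg8* also ended in the fit of only the 2 groups compared and with all genes of at least 1 count. That of *Soat2* ended with library size only. Of 6 genes of bile acid synthesis 3 fell in each remnant group, led by *Cyp8b1* (-2.39 ± 0.43 with vehicle and -2.68 ± 0.44 with NSC, edgeR adjusted p = 0.00453 and 0.00185) and *Cyp27a1* (-1.15 ± 0.23 and -1.78 ± 0.23, adjusted p = 0.00402 and 0.000257). The third was *Akr1d1* with vehicle, a call that ended without baseline replicate 1 or vehicle remnant 3, and *Hsd3b7* with NSC. None of these 14 genes passed between NSC and vehicle. Over the 38 neighbours, 11 passed with vehicle (2 higher, 9 lower) and 22 with NSC (4 higher, 18 lower) against baseline. Among all genes 12.7% were called higher and 11% lower with vehicle, and 18.2% and 16.5% with NSC.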

How the data were processed

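RNA was extracted from whole liver and made into stranded TruSeq mRNA libraries. According to the submitters' notes the authors aligned reads with STAR 2.6.1 and assigned them to genes with featureCounts of Subread 1.5.1. The authors deposited raw counts per gene, without normalization or pooling, and FPKM, which equal those counts divided by the deposited gene length plus 1 base and by the library total (largest relative difference 4.96e-10 above an FPKM of 1). The notes name a human build, whereas 42462 of 43346 identifiers are those of mouse genes in GENCODE M21 (GRCm38), with the same position for 33460, including 8 of the 9 members (not *Fdft1*).

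Differences were fitted with edgeR 4.0.16 (TMM, filterByExpr, robust quasi-likelihood fit of all 9 libraries, group as the only term) and, as an alternative, DESeq2 1.42.0, both under R 4.3.3. Sequences, ratios and plots used pandas 2.3.3 and matplotlib 3.10.9 under Python 3.11.15. The standard error is the absolute log2 fold change divided by the square root of F. CPM and FPKM printed are TMM-scaled except for the sums over markers, which are relative to library size only. Log2 CPM has a prior count of 2. Counting noise is small beside the spread of 3 livers per group, and the chi-square per gene between libraries of a group was 24.9 to 151, so none was a duplicate. The code was tested on simulated data.

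The members, gene lists, markers and motifs were chosen with earlier results of these data known. Genes named are all members, *Msmo1*, *Sc5d* and *Lbr*, of each other list up to 3 called genes per direction and comparison with the smallest p, and 5 of the 6 genes most like the members. Some genes of these lists are not reported here. The marker lists held 6 macrophage genes, of which 5 were in the table, and 5 stellate cell genes. Alternatives were RLE factors, library size only, DESeq2, edgeR's exact test, other count filters, a fold threshold, a replicate block, fits of only the 2 groups compared, each library left out in turn and, chosen after seeing the data, a GC content correction (loess, span 0.5, GC known for 99.2% of genes). Sums over markers include those below the count filter.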

Additional observations from a re-analysis of the deposited data

Results flagged for a closer look

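*Mvd*, the decarboxylase of the mevalonate section, differed between the NSC and vehicle groups in a test of that difference itself (log2 fold change -1.78 ± 0.21, edgeR quasi-likelihood adjusted p = 0.0341, all 3 NSC livers below all 3 vehicle remnants). The call rested on single libraries and ended without vehicle remnant 2, NSC replicate 2 or NSC replicate 3. It also ended after the GC correction (-1.43, edgeR adjusted p = 0.183).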

How the results depend on the processing

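Precision was limited by 3 livers per group. Of the members, 5 were called lower in NSC against baseline (4 to 5 with each library left out in turn, 0 with an added log2 fold change over 1.5), and their median of -0.70 ranged from -0.84 to -0.45 (without baseline replicate 2). With a library left out, 23.4% to 33.9% of all genes were called in either direction there. For vehicle against baseline, 0 members were called, and 1 with library size only or DESeq2, 2 with the exact test or only the 2 groups compared, and 0 to 2 with a library left out, with medians from -0.34 (without vehicle remnant 2) to 0.0761 (without vehicle remnant 1) around -0.07. The share of all genes called in these settings was 22.5%, 28.2%, 26.5% and 30.5%, in the order given. It was 14.8% to 29.5% with a library left out. For NSC against vehicle, 0 members were called, and 4 with DESeq2, 3 with the exact test, 2 with all genes of at least 1 count, and 0 to 4 with a library left out (4 without NSC replicate 1), with medians from -0.65 (without NSC replicate 1) to -0.26 (library size only) around -0.40, and -0.65 to -0.39 with a library left out. The share of all genes called was 6.12%, 3.02% and 0.909% in the first 3 of these settings. With a library left out it was 0% to 6.46% (without NSC replicate 1). Neighbours called were 11 with vehicle (2 with the fold threshold, 7 to 14 with a library left out, and 7 without baseline replicate 1 or 3 or vehicle remnant 1 or 3), 22 with NSC (6 with the fold threshold, 17 to 22) and 1 between NSC and vehicle (7 with DESeq2, 6 with the exact test, 5 with all genes, 0 with the GC correction chosen after seeing the data, and 0 to 6 with a library left out, where leaving out vehicle remnant 2, NSC replicate 2 or NSC replicate 3 gave 0, vehicle remnant 3 gave 3 and NSC replicate 1 gave 6). Members that turned sign, all uncalled, were *Lss* (up to 0.17), *Dhcr7* (0.13) and *Ebp* (0.08) in vehicle against baseline, *Sqle* (0.02) and *Cyp51* (0.14, and 0.12 with library size only) in NSC against baseline, and *Tm7sf2* (0.01) and *Ebp* (0.07) in NSC against vehicle, each with a library left out. Among *Lbr* and *Mvd*, the neighbours followed in this way, those that turned sign below the threshold were *Lbr* between NSC and vehicle (-0.15 with the GC correction and -0.18 without NSC replicate 2, within a range of -0.18 to 0.26 over libraries left out) and *Mvd* in vehicle against baseline (0.0709 without baseline replicate 3). With library size only the median of all genes moved to 0.15 in NSC against baseline and 0.14 in NSC against vehicle, and the calls in the former were 3399 higher and 1795 lower in place of 2728 and 2479. The cause of these shifts was not tested.

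Deviations of same-numbered libraries correlated at -0.05 to 0.13, with 1 of 9 over 0.1, so the numbers were not taken to pair the samples. With the replicate block 2 members were called in vehicle against baseline, 5 in NSC against baseline and 1 (*Lss*) in NSC against vehicle, with 1 neighbour in the last. Of all genes, 23.8%, 34.5% and 0.0732% were called in either direction in these comparisons, in the same order.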
